A study of Mus musculus with 6 samples.

Results

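The neurotrophins, the related survival factor GDNF and their receptors were read in the whole brain of male FVB mice (FVB/N in the study's methods) at postnatal day 6, with and without an activated human SRY transgene. The set held 8 genes, taken by their symbol alone: the ligands Bdnf, Ntf3 and Gdnf, and the receptors Ntrk2, Ntrk3, Ngfr, Gfra1 and Ret. They had 16 of the 25697 probes of the Illumina MouseRef-8 v2.0 bead array, on which each gene is read by 1 or more short oligonucleotides coupled to beads. Of these 16 probes, 9 passed the filter on dim signals, and each of the 8 genes kept at least 1 of them.

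Both groups carried a single copy of the Signalox-hSRY transgene, placed at the H11 locus of chromosome 11 in 1 mouse line. In the 3 hSRY-OFF mice the transgene was not recombined, so that the ubiquitous CAG promoter drove the red fluorescent protein DsRed2 and human SRY stayed silent. In the 3 hSRY-ON mice, Cre recombinase carried over from the oocyte of a Ddx4-Cre mother had recombined the transgene at the one-cell stage, and the same promoter drove FLAG-tagged human SRY together with EGFP. The hSRY-ON mice were selected for not carrying Ddx4-Cre themselves. The promoter was active in the whole body and not in the brain alone, and no probe for human SRY was analysed here. The comparison asks which genes of the brain differ at an age when growth retardation of hSRY-ON pups was visible.

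Neurotrophins are secreted proteins that keep neurons alive and shape their processes and synapses. BDNF, the product of Bdnf, acts through the receptor tyrosine kinase TrkB, encoded by Ntrk2, and neurotrophin-3, the product of Ntf3, acts mainly through TrkC, encoded by Ntrk3. All neurotrophins also bind the p75 receptor, encoded by Ngfr, which has no kinase domain and is known for its part in cell death and in the control of growth. GDNF uses another route, in which the membrane-anchored co-receptor GFRα1, encoded by Gfra1, presents it to the receptor tyrosine kinase RET. GDNF is best known for its effects on dopamine neurons, motor neurons and the enteric nervous system. SRY is a transcription factor with an HMG box that binds short DNA motifs with the core AACAAT.

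In the GRCm38.p6 assembly the 8 genes lie on several chromosomes. Gdnf spans chr15:7810048-7837580, Gfra1 chr19:58235581-58455946 and Ret chr6:118151748-118197744. Ntf3 lies on the same chromosome as Ret, at chr6:126101412-126166772. Bdnf spans chr2:109674700-109727043, Ngfr chr11:95568818-95587698, Ntrk2 chr13:58806472-59133970 and Ntrk3 chr7:78179986-78581034. Ngfr is thus on the chromosome that also holds the transgene.

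The RefSeq table of transcription start sites held 14 start sites of 6 of these genes. It held none of Ret or Ntrk3, so that nothing is said here of the motif before those genes. The 250 bases before 3 of them are shown in the sense of the gene, because Gdnf and Gfra1 encode a ligand and the co-receptor that binds it, and because the windows show how far the SRY core motif can be read from sequence alone. Capitals mark the letters ACAAT, or ATTGT on the other strand, which are also the last letters of AACAAT, so that a match to the longer motif always counts for the shorter one too.
Gdnf, chr15:7809798-7810047, + strand: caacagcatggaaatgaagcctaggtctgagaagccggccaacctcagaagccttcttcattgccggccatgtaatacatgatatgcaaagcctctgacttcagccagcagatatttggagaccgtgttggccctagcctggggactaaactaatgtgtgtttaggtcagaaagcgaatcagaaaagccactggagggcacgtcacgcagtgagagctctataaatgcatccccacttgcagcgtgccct
Gdnf, chr15:7813477-7813726, + strand: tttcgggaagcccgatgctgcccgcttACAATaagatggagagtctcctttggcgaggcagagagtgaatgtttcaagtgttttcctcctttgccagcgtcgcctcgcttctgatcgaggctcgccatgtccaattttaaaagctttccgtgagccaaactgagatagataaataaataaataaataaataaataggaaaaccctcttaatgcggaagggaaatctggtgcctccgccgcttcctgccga
Gfra1, chr19:58455399-58455648, - strand: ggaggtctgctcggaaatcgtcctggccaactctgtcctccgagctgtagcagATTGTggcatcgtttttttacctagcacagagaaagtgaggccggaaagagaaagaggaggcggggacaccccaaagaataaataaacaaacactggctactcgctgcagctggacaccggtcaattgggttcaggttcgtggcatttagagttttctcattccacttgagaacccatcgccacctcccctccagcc
The first Gdnf window held no match, the other Gdnf window held 1 that began 223 bases before the start site, and the Gfra1 window held 1 that began 197 bases before it. Over the 14 windows of the set, ACAAT was found on either strand in 5, belonging to Bdnf, Gdnf, Gfra1 and Ntrk2, while 27.7% of all 32851 windows of the same length held it. The full AACAAT was found in 1 of the 14, before a Bdnf start site at chr2:109722671-109722920, against 9.42% of all windows. A match of these letters is a description of the sequence and not a binding site.

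The arrays were alike in brightness and in the number of probes detected. The median deposited intensity of an array lay between 200.2 and 219.8, and 13816 to 14377 probes per array had a detection p-value, the fraction of negative controls that shone as brightly as the probe or brighter, under 0.05. The first principal component, with 42.8% of the variance, separated the genotypes, and the second, with 18.5%, set hSRY-ON replicate 3 apart from the other 5 arrays. In the fit across all 14215 tested probes, 308 were called at an adjusted p under 0.05. Leaving out any array but hSRY-ON replicate 3 reduced this to 0 or 1. The neuronal genes Syt1, Tubb3 and Mtap2 were detected on all 6 arrays, while the probe for Snap25, a synaptic protein of neurons, was below background on all 6. Of 4 genes of other organs, Alb and Ins2 were below background on all 6 arrays, Myh6 was detected on 1 hSRY-OFF array, and Sftpc on 1 array of each genotype.

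Bdnf, Ntf3, Ntrk2, Ntrk3 and Ngfr each had a probe that was detected on all 6 arrays at a detection p-value under 0.05, with Ntrk2 having a pair of such probes. The single detectable probes of Gdnf, Gfra1 and Ret stood close to the limit of detection. Gdnf was detected on 3 of 3 hSRY-OFF arrays and on 0 of 3 hSRY-ON arrays, with detection p-values of 0.0401, 0.0351 and 0.0351 against 0.0777, 0.0539 and 0.120. The values thus lay narrowly on either side of the limit, and 0.232% of the tested probes had the same 3 against 0 pattern, while 0.267% had the opposite one. Gfra1 was detected on 3 hSRY-OFF arrays and on hSRY-ON replicates 2 and 3, with a detection p-value of 0.0689 on replicate 1. Ret showed the same distribution, with a detection p-value of 0.187 on hSRY-ON replicate 1.

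The number of the 16 probes detected per array was 9, 10 and 9 in hSRY-OFF and 6, 9 and 8 in hSRY-ON. The means of 9.33 ± 0.577 (SD, n = 3) and 7.67 ± 1.53 (SD, n = 3) did not differ beyond the spread between arrays (exact permutation test, two-sided, p = 0.3, where 3 against 3 arrays cannot give a p under 0.1). With a detection p-value under 0.01, the counts were 6, 8 and 7 against 6, 5 and 8 (exact permutation test, two-sided, p = 0.8). In all, 6 probes were detected on every array and 5 on none.

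**Figure D1:**
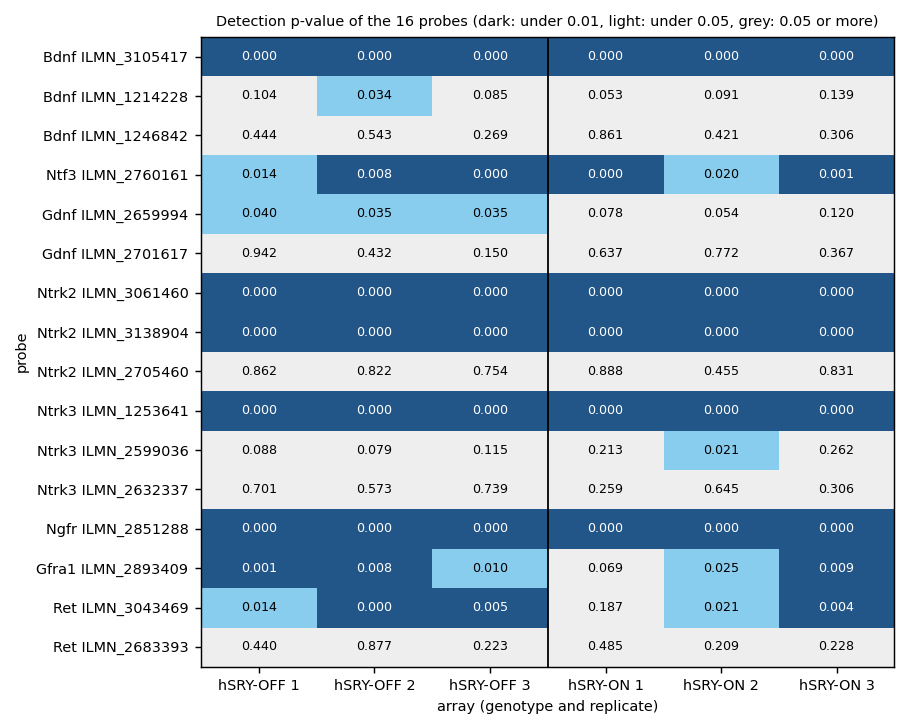
Detection p-value of each of the 16 probes (rows) on each of the 6 arrays (columns), with dark blue for values under 0.01, light blue for values under 0.05 and grey for the rest. The probes of Bdnf, Ntf3, Ntrk2, Ntrk3 and Ngfr that were detected on all arrays form full rows, and Gdnf ILMN_2659994 changes colour between the genotypes with values from 0.0351 to 0.120.

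The other 7 probes were too dim to be tested. For Bdnf, ILMN_1214228 was detected on hSRY-OFF replicate 2 alone and ILMN_1246842 on no array. For Ntrk3, ILMN_2599036 was detected on hSRY-ON replicate 2 alone and ILMN_2632337 on no array. Gdnf ILMN_2701617, Ntrk2 ILMN_2705460 and Ret ILMN_2683393 were below background on all 6 arrays. Probes of 1 gene can read different transcripts, and which transcripts each of them reads is not given in the sources used here, so a dim probe does not speak against a bright one of the same gene.

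None of the 9 tested probes was called. Across all tested probes 2.17% were called, which would correspond to less than 1 probe of 9, so that a count of 0 does not set these genes apart. At an unadjusted p under 0.05, limma passed 1 of the 9, the probe for Gdnf, or 11.1%, against 20.9% of all tested probes and 10.9% in the direction of Gdnf, lower in hSRY-ON. Gdnf entered the test only through the hSRY-OFF arrays, where it was higher, so that this count carries no weight. It was 0 without hSRY-OFF replicate 2 or 3, 2 without hSRY-ON replicate 2, 4 without hSRY-ON replicate 3, 3 with the replicate number as a block and 2 with a trend and robust prior. Gdnf itself had an unadjusted limma p of 0.233 with that prior and 0.251 without background correction. It was 0.0879 with the correction run on the signals, without inferred negative controls, and with a larger offset. The log2 fold change, the difference of the mean log2 intensities as hSRY-ON minus hSRY-OFF, was above 0 for 5 probes and below 0 for 4, and 48.9% of all tested probes had a value below 0. By the means of the deposited intensities, 2 probes were higher and 7 lower in hSRY-ON. Ngfr, Ntrk3 and Ntrk2 ILMN_3138904 were lower by these means and above 0 by the log2 fold change. The log2 scale, the background correction and the normalization all lie between these measures, and their parts were not separated. The median over the 9 probes was 0.042, beside 0.0048 for all tested probes. The values of hSRY-ON and hSRY-OFF did not overlap for 1 probe, again Gdnf, while 27.7% of all tested probes had no overlap and 14.2% had none with hSRY-ON lower.

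**Figure D2:**
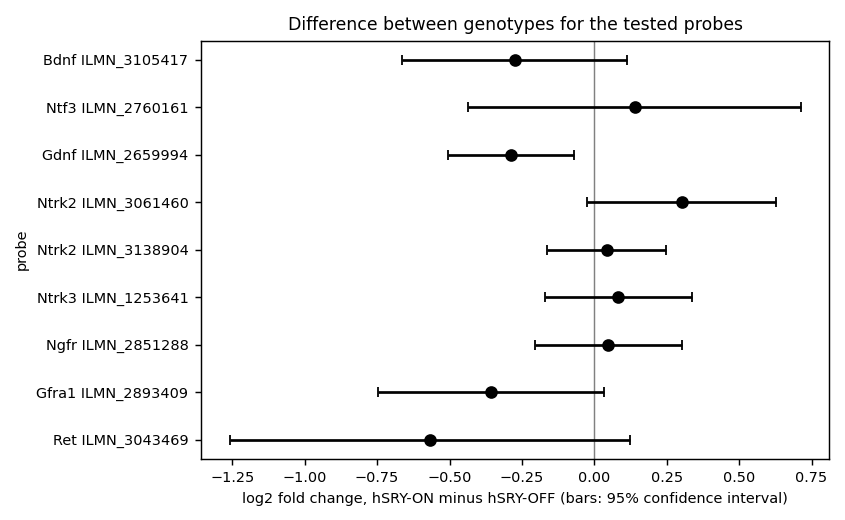
Log2 fold change of each tested probe, hSRY-ON minus hSRY-OFF (horizontal axis), with its 95% confidence interval from the limma fit, n = 3 arrays per genotype. Of the 9 intervals, 8 include 0, and that of Gdnf, which was below background on all hSRY-ON arrays, runs from -0.51 to -0.07.

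Bdnf, the ligand of TrkB, was read by ILMN_3105417 at deposited intensities of 555, 461 and 441 in hSRY-OFF and 432, 461 and 349.5 in hSRY-ON. The highest value was that of hSRY-OFF replicate 1 and the lowest that of hSRY-ON replicate 3, and the groups overlapped. This gave a log2 fold change of -0.28 (SE 0.165, 95% confidence interval -0.67 to 0.11, limma adjusted p = 0.386). Without hSRY-ON replicate 3, the array that stood apart in the principal components, it was -0.10, and without hSRY-ON replicate 2 it was -0.43. The interval leaves room for a level in hSRY-ON between 0.631 and 1.08 times that in hSRY-OFF.

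Ntf3, the ligand of TrkC, had intensities of 219, 214 and 229.6 in hSRY-OFF and 246, 194.5 and 233 in hSRY-ON. The hSRY-ON arrays held both the highest and the lowest of the 6 values. The log2 fold change of 0.14 (SE 0.243, 95% confidence interval -0.43 to 0.71, limma adjusted p = 0.791) was smaller than its error, and it became -0.016 without hSRY-ON replicate 1.

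Gdnf, the ligand of the GFRα1 and RET receptor complex, had intensities of 206, 195 and 197 in hSRY-OFF and 192, 182 and 181 in hSRY-ON. All hSRY-ON values were lower than all hSRY-OFF values. The probe was not above background on any hSRY-ON array, so that only a bound on the means can be given. On the background-corrected and normalized scale, the hSRY-OFF mean was at least 1.09-fold higher. This bound has no error attached, and the 95% confidence interval of the fit reached 0.953 times the hSRY-OFF level, a smaller difference. The bound also holds for that scale alone, since the means of the deposited intensities, 199 and 185, lay closer together. The limma fit gave a log2 fold change of -0.29 (SE 0.0924, 95% confidence interval -0.51 to -0.07, unadjusted p = 0.0167, adjusted p = 0.145), and the probe had passed the filter on dim signals through the hSRY-OFF arrays alone. Without any background correction the log2 fold change was -0.076. With the correction run on the signals, without inferred negative controls, and with a larger offset, it was -0.14.

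**Figure D3:**
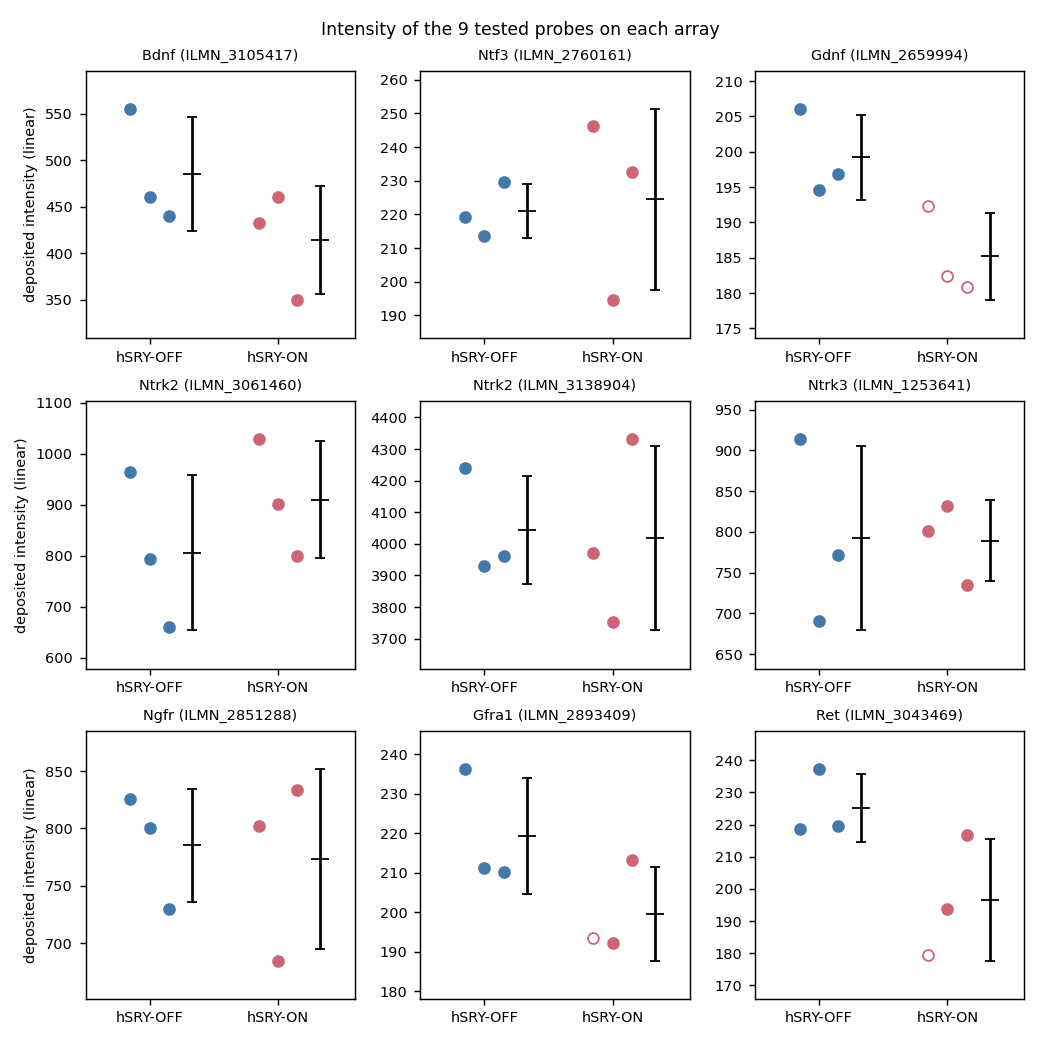
Deposited bead intensity (vertical axis, linear, own scale in each panel and not starting at 0) of the 9 tested probes on the 3 hSRY-OFF arrays (blue) and the 3 hSRY-ON arrays (red), in replicate order from left to right, with mean and SD beside each group. Open circles are arrays on which the probe was not detected at a detection p-value under 0.05, as on all 3 hSRY-ON arrays for Gdnf and on hSRY-ON replicate 1 for Gfra1 and Ret.

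Ntrk2, which encodes TrkB, was read by a pair of bright probes. ILMN_3138904 had intensities of 4241, 3928 and 3961 in hSRY-OFF and 3971, 3753 and 4332 in hSRY-ON, with full overlap of the groups. Its log2 fold change was 0.042 (SE 0.0873, 95% confidence interval -0.16 to 0.25, limma adjusted p = 0.825), so that a level in hSRY-ON below 0.893 times or above 1.19 times that in hSRY-OFF lies outside the interval.

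The other probe, ILMN_3061460, had intensities of 963, 793 and 661 in hSRY-OFF and 1028, 901 and 799.5 in hSRY-ON. The highest value came from hSRY-ON and the lowest from hSRY-OFF, and the groups overlapped. The fit gave a log2 fold change of 0.30 (SE 0.139, 95% confidence interval -0.03 to 0.63, limma adjusted p = 0.269). It was the highest of the 9, was above 0 under each of 14 alternative settings, from 0.18 to 0.39, and had adjusted p-values from 0.095 to 0.521 under them. The Ntrk2 gene makes a full-length receptor, used by neurons, and truncated forms without the kinase that are abundant in astrocytes. Which of these forms each probe reads is not given in the sources used here, and the difference between the fold changes of both probes was not tested.

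Ntrk3, which encodes TrkC, had intensities of 914, 691 and 772 in hSRY-OFF and 801, 832 and 734 in hSRY-ON. The hSRY-OFF arrays held both the highest and the lowest value. The log2 fold change was 0.082 (SE 0.108, 95% confidence interval -0.17 to 0.34, limma adjusted p = 0.708), and it was -0.0053 without hSRY-OFF replicate 2. Ngfr, which encodes the p75 receptor, had intensities of 825, 801 and 729.8 in hSRY-OFF and 802, 685 and 833 in hSRY-ON, again with overlap. Its log2 fold change was 0.047 (SE 0.108, 95% confidence interval -0.21 to 0.30, limma adjusted p = 0.844), and it was -0.035 without hSRY-ON replicate 3.

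Gfra1, the co-receptor that binds GDNF, had intensities of 236, 211 and 210.3 in hSRY-OFF and 193, 192 and 213 in hSRY-ON. Replicates 1 and 2 of hSRY-ON lay below all hSRY-OFF arrays and replicate 3 did not. Their means gave a log2 fold change of -0.36 (SE 0.165, 95% confidence interval -0.75 to 0.03, limma adjusted p = 0.272). Without hSRY-ON replicate 3 it was -0.54 (limma adjusted p = 0.0655), without hSRY-ON replicate 1 it was -0.21, and without background correction it was -0.099.

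Ret, the kinase of this receptor complex, had intensities of 219, 237 and 219.6 in hSRY-OFF and 179, 194 and 217 in hSRY-ON. The deposited intensities did not overlap, but the normalized log2 values did, with 5.82, 6.47 and 6.20 in hSRY-OFF and 4.99, 5.67 and 6.12 in hSRY-ON. The log2 fold change was the lowest of the 9, and so was its precision the poorest, with an SE of 0.293, a 95% confidence interval of -1.26 to 0.12 and a limma adjusted p of 0.316. Its value of -0.57 became -0.84 without hSRY-ON replicate 3, -0.27 without hSRY-ON replicate 1 and -0.17 without background correction. The log2 fold changes of Gdnf, Gfra1 and Ret were each closest to 0 without background correction, and each stayed below 0 under the alternatives that could be run.

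**Figure D4:**
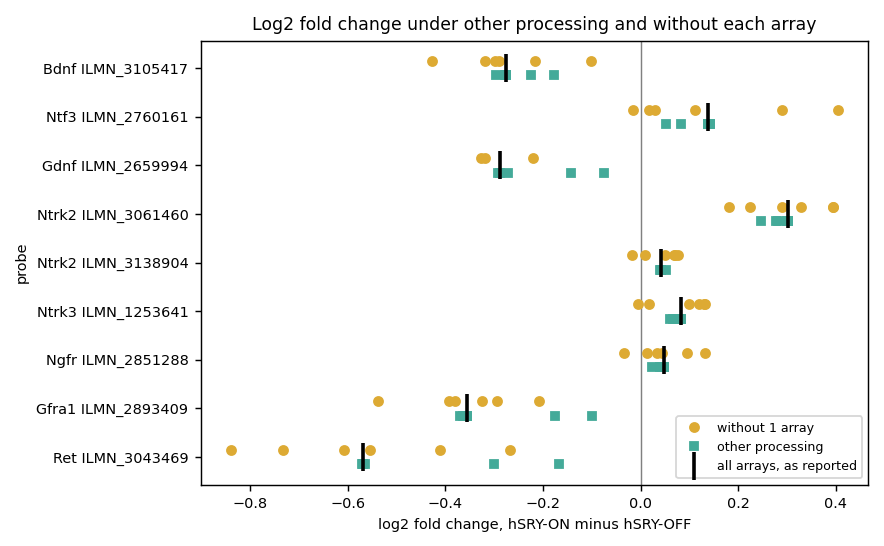
Log2 fold change of each tested probe (horizontal axis, hSRY-ON minus hSRY-OFF) with all arrays and the processing described (black line), with other processing (green squares) and with 1 array left out (yellow circles). The values of Ret spread from -0.84 to -0.17 and those of Gfra1 from -0.54 to -0.099, while both Ntrk2 probes, Ntrk3 and Ngfr moved little under other processing.

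By role, the ligands had 1 probe above 0 and 2 below, and the receptors had 4 above and 2 below. By route, the GDNF route of Gdnf, Gfra1 and Ret had 3 of 3 tested probes below 0, with a median of -0.36 and with Gdnf tested only because it was detected in hSRY-OFF, and the neurotrophin route had 5 of 6 above 0, with a median of 0.065, but only 2 of 6 with a higher mean of the deposited intensities in hSRY-ON. None of these probes was called. The tested probes of Gdnf, Gfra1, Ret and Ntf3 were the ones near background, since none of them had a detection p under 0.01 on all 6 arrays.

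In RNA of a whole brain, fewer cells of a type and less RNA per cell cannot be told apart. Short marker lists were summed per array, taking the normalized linear signal of the brightest probe of each gene, to see which cell types moved with the genotype. A marker is given as detected where any of its probes had a detection p under 0.05 on at least 1 array. All 4 oligodendrocyte markers were detected, and their sum ranged from 19876 to 25018 in hSRY-OFF and from 14914 to 15557 in hSRY-ON. The sums for oligodendrocyte precursors, with 4 of 4 markers detected, were 8333 to 9098 against 7381 to 8209. Within that list, Olig1 and Olig2 had log2 fold changes of -0.27 and -0.31, Cspg4 one of -0.073 and Pdgfra one of 0.19, with all hSRY-ON values of Pdgfra above those of hSRY-OFF. Endothelium, with 3 of 4 markers detected and Kdr below background, had 4618 to 5255 against 3183 to 4103. Its markers did not move together, with log2 fold changes of -0.42 for Cldn5, -0.53 for Tek and 0.065 for Pecam1. Meninges, with 3 of 4 detected and Col1a2 below background, had 3718 to 3806 against 2459 to 3322.

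Dopamine neurons, for which the GDNF route is known, did not show a lower sum. Their markers, 5 of 5 detected with Slc18a2 on 1 array alone, summed to 1445 to 1587 in hSRY-OFF and 1477 to 1595 in hSRY-ON, and the groups overlapped. Of the motor neuron markers, Isl1 had a log2 fold change of 0.43 (limma adjusted p = 0.139) and Prph one of 0.0089 (limma adjusted p = 0.988), and Mnx1 was below background. The neuron markers, 3 of 4 detected, summed to 11317 to 13333 against 11483 to 12617, and the cholinergic markers, 4 of 4 detected with Slc5a7 on 1 array alone, to 335 to 366 against 354 to 396. The astrocyte sums overlapped, at 24376 to 25159 against 22116 to 25835 with 4 of 5 detected and S100b below background, although Gfap and Aqp4 were called lower, with log2 fold changes of -0.83 (limma adjusted p = 0.0308) and -0.81 (limma adjusted p = 0.0275). Both calls were lost with the replicate number as a block (limma adjusted p = 0.0989 and 0.0986) and without any 1 array other than hSRY-ON replicate 3 (limma adjusted p from 0.0614 to 0.111). Aldh1l1 had -0.48 (limma adjusted p = 0.0834) and Slc1a3 0.028 (limma adjusted p = 0.897). The sums overlapped as well for microglia, with 3 of 4 markers detected, Itgam below background and 650.1 to 673 against 625 to 690.2, and for pericytes, with 4 of 4 detected and 765 to 842 against 727 to 775. Schwann cell markers, with Pmp2 below background and 2 of 3 detected, had 98.2 to 247 against 80.9 to 126. The part of these cell types in the values of the 8 genes was not tested.

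Further genes of these routes were read from a list of 77 genes, of which 68 were in the table and 55 had a tested probe. Of their 86 tested probes, 52 had a log2 fold change above 0 and 34 below, with a median of 0.065. None was called, 16 (18.6%) had an unadjusted p under 0.05 in limma, 8 in each direction, and 27 (31.4%) had no overlap between the genotypes. These shares stood near those of all tested probes.

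Nerve growth factor, under the symbol Ngfb, had log2 fold changes of -0.24 (limma adjusted p = 0.332) and -0.043 (limma adjusted p = 0.872) on its probes. Among the other GDNF family ligands, Nrtn, which encodes neurturin, was detected on 0 hSRY-OFF and 3 hSRY-ON arrays, the reverse of Gdnf. Of all tested probes, 0.267% had this pattern. On the normalized scale its mean was at least 1.12-fold higher in hSRY-ON (limma adjusted p = 0.0557). Nrtn passed the filter through the hSRY-ON arrays alone, where it was higher, so that these values carry no weight. Artn, which encodes artemin, had 0.32 (limma adjusted p = 0.392), and Pspn, which encodes persephin, was below background. The remaining co-receptors of the family gave no call either, with Gfra4 at -0.075 and Ncam1, an adhesion molecule that can take the place of RET, at -0.19 and 0.027, while Gfra2 and Gfra3 were below background.

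The sortilin family, whose members sort neurotrophins and their receptors and bind proneurotrophins, had 11 tested probes of 5 genes, of which 8 had no overlap between the genotypes, 3 higher and 5 lower, beside 27.7% of all tested probes without overlap in either direction. Probes of 1 gene are not independent of each other. Sort1 had log2 fold changes of -0.15, -0.19 and -0.094 on lower probes without overlap, and 0.17 on its remaining probe, with overlap. Sorl1 had a log2 fold change of -0.36 (limma adjusted p = 0.0716) and Sorcs2 one of -0.28 (limma adjusted p = 0.187). The probes of Sorcs1 disagreed, at 0.23 (limma adjusted p = 0.142), 0.042 and -0.12. Those of Sorcs3 had 0.23 (limma adjusted p = 0.194) and 0.15. Sorl1 was called in 4 of the alternatives, with limma adjusted p = 0.039 under the strict filter on dim probes and 0.00715 without background correction.

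Among the partners of p75, Rtn4r, a receptor for myelin inhibitors of axon growth, had -0.39 (limma adjusted p = 0.230) and Lingo1, its co-receptor, -0.083. The adaptors that carry signals from Trk receptors and RET had 16 probes above 0 and 7 below. Sos1, an activator of Ras, was below background on all hSRY-OFF arrays and passed the filter through the hSRY-ON arrays alone. Its mean there was at least 1.26-fold higher on the normalized scale (limma adjusted p = 0.0595), values that carry no weight for the same reason as those of Nrtn. Pik3r1, a subunit of PI3-kinase, had 0.48 (limma adjusted p = 0.121) on a probe detected on 1 hSRY-OFF array, and 0.12 and 0.098 on the probes detected on all arrays. The docking protein Gab1 had -0.32 (limma adjusted p = 0.134), and Shc3, an adaptor of neurons, -0.23 (limma adjusted p = 0.249).

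For the processing and transport of neurotrophins, Cadps2, which promotes the release of BDNF-containing vesicles, had -0.34 (limma adjusted p = 0.1001) and -0.30 (limma adjusted p = 0.278) on its probes, and Hap1, which takes part in the transport of BDNF, had 0.30 on 1 probe (limma adjusted p = 0.109) and -0.20, -0.13 and -0.046 on the others. Of the 21 tested probes of genes known to respond to these pathways, 14 were above 0 and 7 below. Arc, a synaptic immediate early gene, had -0.55 (limma adjusted p = 0.0723), with log2 values of 8.33, 8.51 and 8.16 in hSRY-OFF and 7.76, 7.64 and 7.96 in hSRY-ON that did not overlap. Arc was called in 4 of the alternatives. The probes of Npas4, another activity-regulated factor, pointed in opposite directions, at -0.32 (limma adjusted p = 0.156) and 0.36 (limma adjusted p = 0.341). Regulators of Bdnf and Ret transcription had 8 of 8 tested probes above 0, none at an unadjusted p under 0.05, from Mef2c at 0.071 to Phox2a at 0.26 and Nkx2-1 at 0.34.

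**Figure D5:**
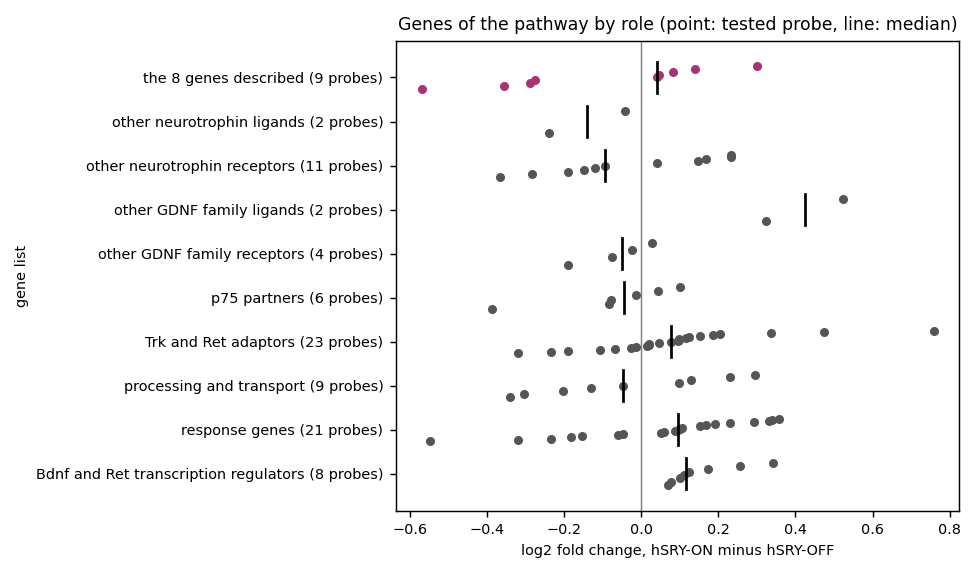
Log2 fold change, hSRY-ON minus hSRY-OFF (horizontal axis), of each tested probe of the 8 genes (magenta) and of the other genes of their pathways by role (grey), with the median of each list as a black line. The lists scatter on both sides of 0, except for lists of 2 probes and the 8 probes of the transcription regulators, and no point shown was called.

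The probes whose profile over the 6 arrays lay closest to that of Gdnf, by the root mean square difference of their centred log2 values among all tested probes, were Ampd2, an AMP deaminase, at 0.0331 and Usp28, a deubiquitinase, at 0.0374. Their log2 fold changes were -0.25 (limma adjusted p = 0.151) and -0.34 (limma adjusted p = 0.0828). Both were detected on all 6 arrays, and neither was called. Since Gdnf was not above background on the hSRY-ON arrays, its values there are not levels, and the likeness is that of the normalized numbers alone.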

How the data were processed

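Total RNA of the whole brain of 3 hSRY-OFF and 3 hSRY-ON mice was hybridised to Illumina MouseRef-8 v2.0 arrays. The authors deposited, for each probe and array, a linear mean bead intensity without normalization and a detection p-value. They name the package TCC in the methods and limma in the processing notes, with settings not given in the sources used here. The mice were biological triplicates.

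The members and lists were chosen with earlier results of these data known. Intensities were corrected by normexp, with negative controls inferred from the detection p-values (offset 16), quantile normalized and put on the log2 scale with limma 3.58.1 in R 4.3.3. The 14215 probes with a detection p under 0.05 on at least 3 of 6 arrays were fitted with lmFit and eBayes (two-sided, no covariates). P-values were adjusted by Benjamini-Hochberg over all of them, and a probe was called at an adjusted p under 0.05. With 3 arrays per group, the number of arrays limits the precision.

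Every probe of the 8 genes was reported. Of the other pathway genes, each called probe and, per role, the 2 highest and 2 lowest by log2 fold change could be named, and for a member at an unadjusted p under 0.05 the 2 closest profiles. Genes with no detected probe, Sort1, cell markers, further probes of named genes and Arc's array values were named outside this rule, and some listed genes are not reported here. Alternatives changed the background correction, normalization, filter, prior, threshold and replicate block, or left out each array. Promoters and gene positions came from RefSeq on GRCm38.p6. Sequences of the probes were not used here.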

Additional observations from a re-analysis of the deposited data

How the results depend on the processing

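No probe of the 8 genes was called under any alternative, an adjusted p under 0.10 included. The count over all probes, 308, was 1317 without background correction, 860 with normexp on the signals and an offset of 50, 123 without a filter, 705 with a detection p under 0.01 on all 6 arrays, 1447 with a trend and robust prior, and 999 at an adjusted p under 0.10. Leaving out 1 array gave from 0 (without hSRY-OFF replicate 1, hSRY-OFF replicate 3 or hSRY-ON replicate 2) to 417 (without hSRY-ON replicate 3), with 1 without hSRY-OFF replicate 2 or hSRY-ON replicate 1. The count over the further pathway genes, 0, was 5, 4, 2 and 7 without background correction, with the offset of 50, with the strict filter and with the trend and robust prior. They came from Arc, Cadps2, Gab1, Hap1, Sorl1, Sort1 and Sos1.

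The log2 fold change turned its sign without 1 array for Ngfr (from -0.035 to 0.13), Ntf3 (from -0.016 to 0.40), Ntrk2 ILMN_3138904 (from -0.018 to 0.076) and Ntrk3 (from -0.0053 to 0.13). The count of probes of the 8 genes without overlap, 1, was 0 under the strict filter, which removed Gdnf, Gfra1, Ret and Ntf3, and ranged from 0 to 4 without 1 array: 2 without hSRY-OFF replicate 1, 0 without hSRY-OFF replicate 2 or 3, 3 without hSRY-ON replicate 2 and 4 without hSRY-ON replicate 3. The share over all tested probes, 27.7%, also rose with 1 array fewer, to between 35.3% and 42.5%. Gdnf could not be fitted without an hSRY-OFF array, since it then no longer passed the filter. Signal over background limited Gdnf, Gfra1, Ret and Ntf3.

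With the replicate number as a block, 0 probes were called over all, with 2906 at an unadjusted p under 0.05 in limma. Same-numbered arrays deviated together only weakly, with correlations of 0.0404, 0.0294 and 0.0251, so the numbers were not taken to pair the mice. The counts for the 8 genes and for the further pathway genes were 0 with and without the block.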
